A study of Homo sapiens with 6 samples.

Results

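RNA-seq of a melanoma cell line with or without an added HDAC8 vector was examined for the ligands and receptors of axon guidance. The members were the protein-coding genes whose symbols begin with SEMA, PLXN, EPHA, EPHB, EFNA, EFNB, SLIT or ROBO followed by a digit or by a letter and a digit, or with UNC5, together with NRP1, NRP2, NTN1, NTN4, NTNG1, NTNG2, DCC and NEO1. This rule gave 71 genes of the 60504 in the table, of which 19664 are protein-coding. They comprise 20 semaphorins, 9 plexins, 2 neuropilins, 5 EFNA and 3 EFNB ephrins, 9 EPHA and 5 EPHB receptors, 3 SLIT ligands, 4 ROBO receptors, 4 netrins and 7 genes grouped with the netrin receptors. UNC5CL entered through its symbol only and is not known as a netrin receptor.

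The cells were WM164, an established human melanoma line with the BRAFV600E mutation. Each group held 3 libraries, named EV (empty expression vector) and HDAC8 (expression vector for HDAC8, a histone deacetylase), and the question was which RNA levels differed between them. Transfected cells of both groups were kept in hygromycin, and the sources used here do not say whether they were pools or clones. All libraries came from 1 cell line, and the labels number the replicates without naming separate cultures, so p-values measure the spread between these libraries, which may be technical.

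Axon guidance cues are secreted or membrane-bound proteins that attract or repel growing axons and migrating cells. Class 3 semaphorins are secreted and act through neuropilins, which bind the ligand, and plexins, which signal. Most other semaphorins bind plexins directly. Ephrins and Eph receptors signal between touching cells in both directions, SLIT proteins act on ROBO receptors, and netrins act on DCC, neogenin and UNC5 receptors. Neural crest cells, from which melanocytes arise, use many of these cues when they migrate.

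The 250 bases before a transcription start are shown for 5 members, read from RefSeq (GRCh38.p14) on the gene's strand, 5′ to 3′. SEMA3C and EPHA3 are shown at the start of their canonical transcript, because they had the largest rise and fall among called members that averaged 50 normalized counts or more and had a window. PLXNC1, SEMA6D and PLXNB2 are shown at other starts of the same genes, because theirs were the only windows of called members to hold one of 4 short motifs, which stand in capitals. The intervals are chr7:80919052-80919301 (minus strand) for SEMA3C, chr3:89107371-89107620 (plus) for EPHA3, chr12:94262369-94262618 (plus) for PLXNC1, chr15:47183839-47184088 (plus) for SEMA6D and chr22:50301670-50301919 (minus) for PLXNB2. These 5 were chosen after their values were seen.
SEMA3C: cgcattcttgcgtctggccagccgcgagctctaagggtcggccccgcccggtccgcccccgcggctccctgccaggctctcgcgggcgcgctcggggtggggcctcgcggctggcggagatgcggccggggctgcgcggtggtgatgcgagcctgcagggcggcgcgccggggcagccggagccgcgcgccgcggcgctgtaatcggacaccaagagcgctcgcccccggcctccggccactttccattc
EPHA3: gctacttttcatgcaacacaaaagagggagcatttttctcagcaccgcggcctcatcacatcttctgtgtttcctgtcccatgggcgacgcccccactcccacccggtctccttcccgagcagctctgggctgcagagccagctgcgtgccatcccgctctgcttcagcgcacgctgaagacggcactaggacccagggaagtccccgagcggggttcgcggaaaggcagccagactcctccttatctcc
PLXNC1: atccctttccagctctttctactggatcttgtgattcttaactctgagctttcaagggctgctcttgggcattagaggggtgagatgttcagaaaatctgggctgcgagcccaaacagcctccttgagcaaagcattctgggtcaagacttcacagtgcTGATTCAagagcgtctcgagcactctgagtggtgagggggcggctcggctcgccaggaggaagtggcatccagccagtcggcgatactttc
SEMA6D: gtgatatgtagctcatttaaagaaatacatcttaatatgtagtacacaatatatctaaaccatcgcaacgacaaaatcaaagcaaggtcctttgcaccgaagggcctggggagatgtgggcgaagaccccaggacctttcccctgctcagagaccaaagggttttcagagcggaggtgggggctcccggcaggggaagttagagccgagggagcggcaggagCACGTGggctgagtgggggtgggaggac
PLXNB2: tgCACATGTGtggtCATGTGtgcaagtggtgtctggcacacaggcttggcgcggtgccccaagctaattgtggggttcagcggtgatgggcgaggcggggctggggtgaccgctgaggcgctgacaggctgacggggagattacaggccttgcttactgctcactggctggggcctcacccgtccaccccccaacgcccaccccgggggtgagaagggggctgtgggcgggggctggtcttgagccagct

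The motifs searched on both strands were TGANTCA (bound by AP-1 factors such as JUN), CACGTG and CATGTG (bound by MITF and related factors) and GGAATG (bound by TEAD factors). TGANTCA was in 1 of 95 windows of the 61 members with a window, against 6.57% of all 35116 windows. CACGTG was in 4 member windows against 6.34% of all, CATGTG in 7 against 9.42%, and GGAATG in 7 against 11.9%. CACGTG and TGANTCA read the same on both strands, and a pair of the capitalised CATGTG matches of PLXNB2 overlap each other. The SEMA3C window was 77.6% G or C and the EPHA3 window 61.2%. No match says only that these letters are not in the window.

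Total counts per library ran from 34741083 to 42041462. Values are expected counts, rounded and divided by a DESeq2 size factor, and are called normalized counts. A gene was called when the DESeq2 two-sided Wald test, adjusted by Benjamini-Hochberg over all genes, gave p under 0.05 and its log2 fold change reached 0.58 in either direction. HDAC8 itself, the vector gene, lay at 383.79, 404.39 and 478.77 normalized counts in EV and at 484.83, 445.51 and 473.69 in HDAC8, with a log2 fold change of 0.15 ± 0.28 (SE, n = 3 per group, DESeq2 adjusted p = 0.856). The groups overlapped, so this gene's count did not mark the labels. The sources used here do not state whether the counted annotation covers the vector's HDAC8 sequence, so the count does not show whether the vector was expressed, and directions below are those of the libraries labelled HDAC8 against EV. The authors separately probed cells transfected with either vector for HDAC8 protein by immunoblot, which these counts do not measure. Mitochondrially encoded genes took 9.66% to 12.8% of counts in EV and 4.46% to 7.94% in HDAC8. Library HDAC8 1 stood apart from its replicates in genes of high GC content, and the calls that change without it are given with the members.

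Of the 71 members, 64 had at least 10 counts in all and were tested, and 62 received an adjusted p. In the libraries labelled HDAC8, 7 were called higher and 8 lower. The 7 are 11.3% of the members with an adjusted p, beside 5.57% of all genes called higher, and the 8 are 12.9%, beside 5.44% called lower. A mean of at least 50 normalized counts was reached by 49 members, of which 6 were higher (12.2%) and 8 lower (16.3%). The same shares over protein-coding genes with such a mean were 8.08% and 7.06%. The difference between these shares was not tested. The median log2 fold change of the 64 members was 0.02, beside 0 for all genes tested.

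**Figure D1:**
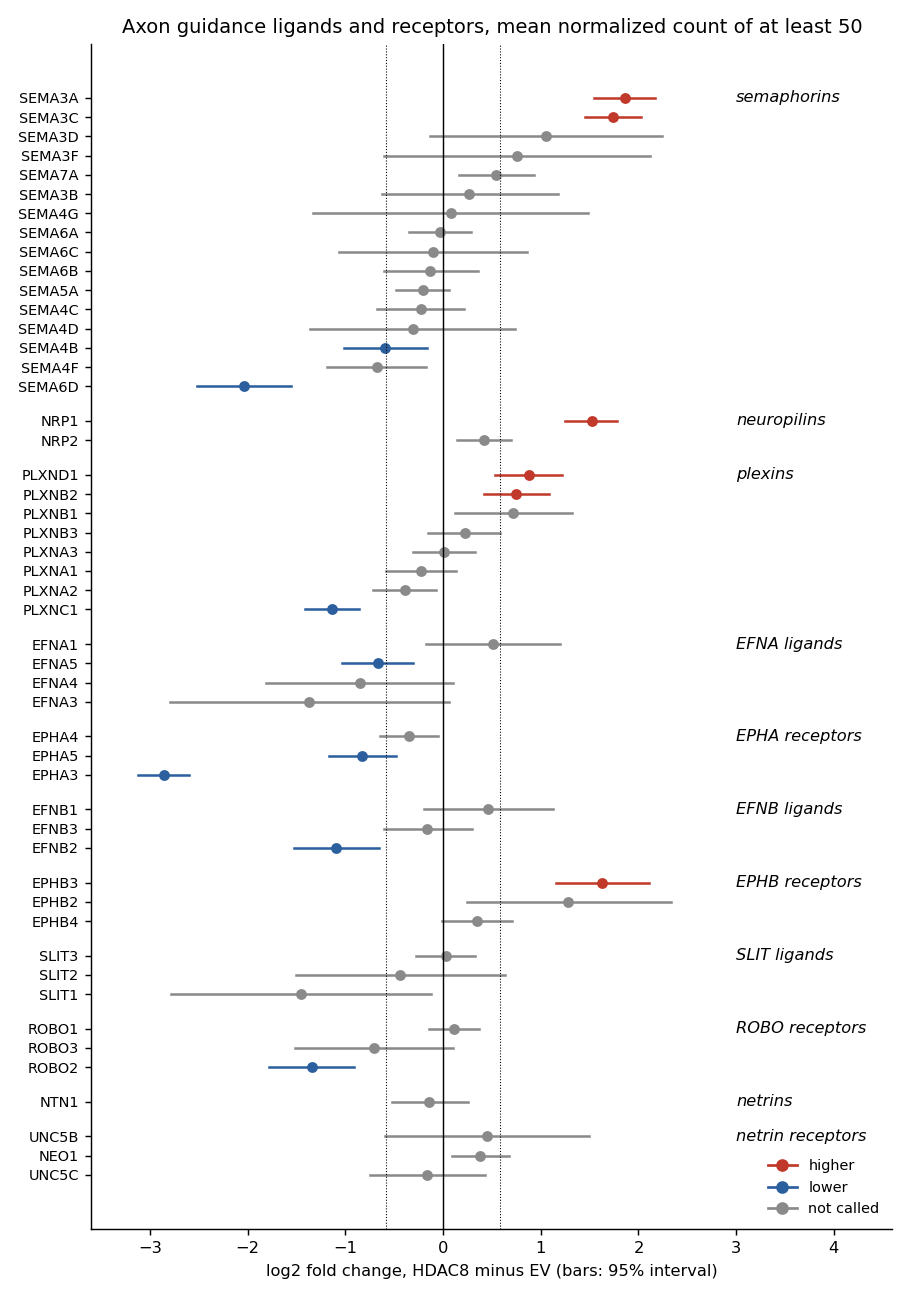
Log2 fold change (x axis, HDAC8 minus EV) of the 49 members averaging 50 normalized counts or more, by family, with bars for the 95% interval and dotted lines at the fold change minimum of 0.58. SEMA3A, SEMA3C, NRP1 and EPHB3 lie farthest to the right among the called members and EPHA3 and SEMA6D farthest to the left.

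The secreted ligands SEMA3A and SEMA3C and their co-receptor NRP1 were all well above EV in the libraries labelled HDAC8. SEMA3A, a repellent of many axons (chr7:83955777-84492724 in GRCh38), was at 1934.7, 1893.1 and 2082.6 normalized counts in EV and at 5842.8, 7905.4 and 7639 in HDAC8. The lowest HDAC8 library was far above the highest EV library. The log2 fold change was 1.86 ± 0.16 (SE, n = 3 per group, DESeq2 adjusted p = 3.6e-28). SEMA3C (chr7:80742538-80922359), a guidance cue for cardiac neural crest cells, was at 3098.6, 3096 and 3116 in EV and at 8810.8, 11788 and 10588 in HDAC8. The EV libraries were nearly equal, and HDAC8 1 was the lowest of its group. Its log2 fold change was 1.74 ± 0.15 (DESeq2 adjusted p = 1.5e-29).

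NRP1 (chr10:33177492-33336262), which binds class 3 semaphorins and VEGF, was at 2810.3, 2674.8 and 2684.5 normalized counts in EV and at 7222.9, 7860.3 and 8289.1 in HDAC8. The groups were well apart, with a log2 fold change of 1.52 ± 0.14 (DESeq2 adjusted p = 3.37e-26). NRP2, the other neuropilin, was at 10653, 14026 and 13086 in EV and at 16294, 17281 and 16791 in HDAC8. Those groups did not overlap either, but the log2 fold change of 0.42 (DESeq2 adjusted p = 0.0259) was under the minimum. Per kilobase of canonical transcript, NRP1 went from 483 to 1380 mean normalized counts and NRP2 from 1890 to 2530, so NRP2 stayed the more abundant on that scale in both groups. Normalized counts summed over both neuropilins were 13460 to 16700 in EV and 23520 to 25140 in HDAC8.

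The other class 3 semaphorins were not called. SEMA3D, SEMA3B, SEMA3F and SEMA3G had group means of 4.719 to 195.2 normalized counts, and SEMA3E had under 10 counts in all. Per kilobase, SEMA3A rose from 243 to 879 and SEMA3C from 637 to 2130, while the means of SEMA3B and SEMA3D stayed at 61.3 or less in both groups.

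SEMA6D and SEMA4B, the membrane-bound semaphorins that were called, went the other way, but the class as a whole did not. Of its uncalled genes whose groups did not overlap, SEMA7A and SEMA4A were higher in HDAC8, and SEMA4F and SEMA5A were lower. SEMA6D (chr15:47184101-47774228), a transmembrane ligand of A-type plexins, was at 1344.3, 1398.1 and 1556.5 normalized counts in EV and at 259.94, 413.76 and 373.51 in HDAC8. Every HDAC8 library was under every EV library by a wide margin, and the log2 fold change was -2.04 ± 0.25 (DESeq2 adjusted p = 1.86e-14). SEMA4B, a transmembrane class 4 semaphorin, was at 1098.9, 1524.2 and 1246.2 in EV and at 889.28, 815.22 and 866.81 in HDAC8, with a log2 fold change of -0.59 ± 0.22 (DESeq2 adjusted p = 0.049). That value lay at both thresholds, and the call was lost in 10 of 15 alternative settings, with DESeq2, edgeR or limma adjusted p from 0.00125 to 0.273 over the alternatives. Leaving out any 1 library other than HDAC8 1 was among those 10.

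SEMA5A was the semaphorin with the most counts and was not called. Its normalized counts were 19344, 20190 and 19585 in EV and 14455, 19136 and 17480 in HDAC8, with a log2 fold change of -0.21 (DESeq2 adjusted p = 0.38). The highest HDAC8 library was just under the lowest EV library. SEMA4C was at 1824.6, 2376.9 and 2118 in EV and at 2401.1, 1362.1 and 1611.6 in HDAC8, with overlapping groups (log2 fold change -0.23, DESeq2 adjusted p = 0.631). HDAC8 1 was the highest library, and without it the log2 fold change was -0.50 (DESeq2 adjusted p = 0.041, under the fold minimum), while without HDAC8 2 it was -0.07. SEMA4F, another transmembrane class 4 semaphorin, was not called (-0.68, DESeq2 adjusted p = 0.06) but was called lower without HDAC8 1 (-0.99, 8.93e-05), and with GC-bin size factors or the filter of 10 counts in every library. SEMA6A was nearly level, at 747 and 731 mean normalized counts per kilobase. Summed over the 20 semaphorins, normalized counts were 38810 to 42650 in EV and 44280 to 51920 in HDAC8.

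**Figure D2:**
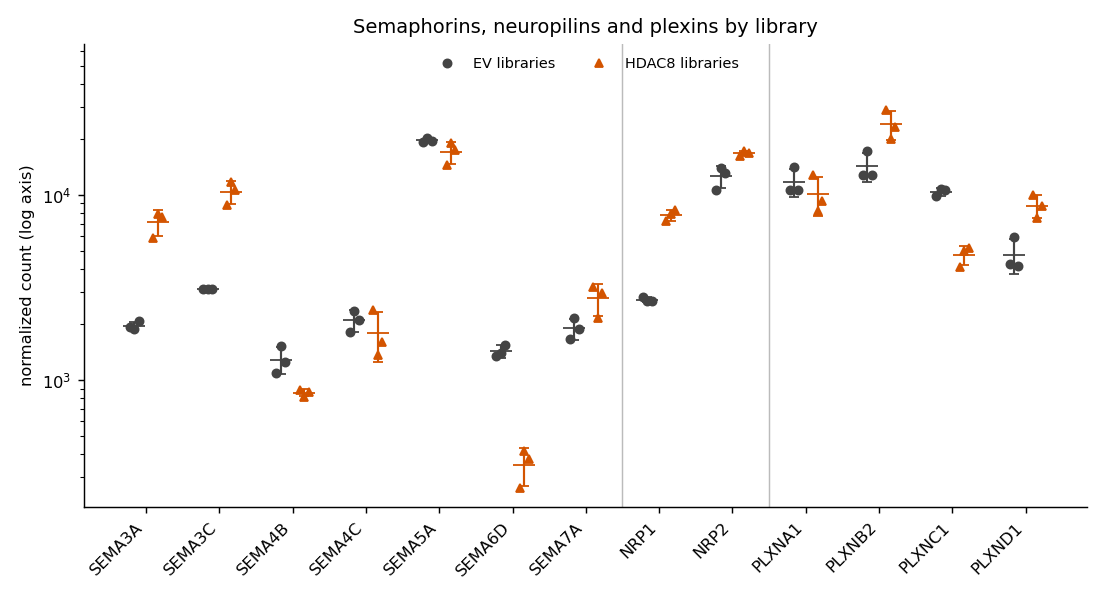
Normalized counts (log axis) of 13 named semaphorins, neuropilins and plexins in each library, with the mean and SD of 3 libraries per group. SEMA3A, SEMA3C and NRP1 lie higher in all 3 HDAC8 libraries and SEMA6D and PLXNC1 lower, while PLXNA1 and SEMA4C overlap.

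Plexins, the signalling receptors of semaphorins, split between 2 higher and 1 lower call. PLXNC1 (chr12:94148577-94307675), the receptor of SEMA7A, was at 9855.8, 10741 and 10592 normalized counts in EV and at 4088.1, 4968.1 and 5140.9 in HDAC8. All HDAC8 libraries were well below EV, and the log2 fold change was -1.14 ± 0.14 (DESeq2 adjusted p = 1.37e-13). Its ligand SEMA7A, a membrane-anchored semaphorin, was at 1664.1, 2153.7 and 1884.5 in EV and at 3192, 2159.9 and 2953.2 in HDAC8. EV 2 and HDAC8 2 were almost equal, and the log2 fold change of 0.54 (DESeq2 adjusted p = 0.0459) missed the fold minimum. SEMA7A passed both thresholds with total-count size factors (0.59), without EV 2 (0.64) and without HDAC8 2 (0.70).

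PLXND1, a receptor for SEMA3E and, with NRP1, for SEMA3C, was at 4223.8, 5908.1 and 4140.5 normalized counts in EV and at 9979.6, 7486.5 and 8720.3 in HDAC8. The groups did not overlap, with a log2 fold change of 0.88 ± 0.18 (DESeq2 adjusted p = 1.86e-05). PLXNB2, a receptor of class 4 semaphorins, was at 12853, 17343 and 12783 in EV and at 28714, 20158 and 23326 in HDAC8 (log2 fold change 0.75 ± 0.17, DESeq2 adjusted p = 1.76e-04). EV 2 was the highest EV library and HDAC8 2 the lowest HDAC8 library for both genes. Per kilobase, PLXNB2 was the most abundant plexin in both groups, at 2240 and 3760 mean normalized counts.

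PLXNA1, a co-receptor with neuropilins, was at 10603, 14215 and 10626 normalized counts in EV and at 12861, 8222.9 and 9231 in HDAC8 (log2 fold change -0.23, DESeq2 adjusted p = 0.527), and the groups overlapped. Without HDAC8 1, its highest HDAC8 library, the log2 fold change was -0.44 (DESeq2 adjusted p = 0.0119), under the fold minimum. PLXNA2 had a log2 fold change of -0.39 (DESeq2 adjusted p = 0.105), PLXNA3 0.01 (0.985), PLXNB1 0.72 (0.104) and PLXNB3 0.22 (0.57), none of them called. PLXNA4 was near 0 in EV, at 0, 0.93393 and 0, and at 0, 34.821 and 26.135 in HDAC8, so 1 HDAC8 library held no read. It was not called (DESeq2 adjusted p = 0.0987), but was called higher without that library, HDAC8 1 (0.0261).

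For the EPHA receptors and EFNA ligands, the called genes were lower in the libraries labelled HDAC8. EPHA3 (chr3:89107621-89482134), a receptor tyrosine kinase bound by EFNA5, was at 8303.9, 8595.9 and 8865.2 normalized counts in EV and at 1194.5, 1153.2 and 1200 in HDAC8. Libraries within each group were close together and the groups far apart. The log2 fold change of -2.86 ± 0.13 (DESeq2 adjusted p = 7e-96) was the most negative of the called members. EPHA5 was at 2630.9, 2358.2 and 2431.3 in EV and at 1222.8, 1527 and 1432 in HDAC8, without overlap (log2 fold change -0.83 ± 0.18, DESeq2 adjusted p = 6.99e-05). EPHA4, which binds ephrins of both classes, did not overlap either, at means of 2994 ± 186 in EV and 2345 ± 90.1 in HDAC8 (SD, n = 3), but was not called (log2 fold change -0.35, DESeq2 adjusted p = 0.12).

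Summed over the 9 EPHA genes, normalized counts were 13760 to 14480 in EV and 4774 to 5200 in HDAC8. EPHA3 went from 1500 to 207 mean normalized counts per kilobase, EPHA4 from 471 to 369 and EPHA5 from 296 to 167. EPHA3 was thus the most abundant EPHA receptor per kilobase in EV, and EPHA4 in HDAC8. EPHA6 had no read in any library, EPHA7 and EPHA10 had under 10 counts, and EPHA1, EPHA2 and EPHA8 had group means of 21.72 or less.

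EFNA5, a membrane-anchored ligand of EPHA receptors, was at 3288.4, 2729 and 3040.1 normalized counts in EV and at 1523.8, 2097.5 and 2073.4 in HDAC8. The groups did not overlap, and HDAC8 1 was the lowest (log2 fold change -0.67 ± 0.18, DESeq2 adjusted p = 0.00402). The call was lost without EV 1 (-0.61, DESeq2 adjusted p = 0.0727) and without HDAC8 1 (-0.54, 0.00441, under the fold minimum), and adjusted p ran from 0.000132 to 0.0727 over the alternatives. EFNA1, EFNA2, EFNA3 and EFNA4 were not called, with group means from 14.45 to 474.4 normalized counts. EFNA3 (log2 fold change -1.37, DESeq2 adjusted p = 0.241) and EFNA4 (-0.85, 0.288) were lower without overlap, while EFNA1 (0.51, 0.422) and EFNA2 (0.38, 0.95) were positive with overlap.

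In the B class, a receptor was higher and a ligand lower. EPHB3 (chr3:184561785-184582408), a receptor of EFNB ligands, was at 574.63, 980.63 and 735.89 normalized counts in EV and at 2909, 1827.1 and 2379.4 in HDAC8. The groups did not overlap, and HDAC8 1 was the highest (log2 fold change 1.63 ± 0.24, DESeq2 adjusted p = 1.45e-09). EFNB2 (chr13:106489745-106535662), a transmembrane ligand of EPHB receptors, was at 1217.4, 1358.9 and 1455 in EV and at 643.02, 710.76 and 531.41 in HDAC8, without overlap (log2 fold change -1.10 ± 0.22, DESeq2 adjusted p = 2.25e-05).

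EPHB4, the main receptor of EFNB2, overlapped between groups, at 2260.8, 2942.8 and 2293.4 normalized counts in EV and at 3712.8, 2774.4 and 3082.8 in HDAC8 (log2 fold change 0.35, DESeq2 adjusted p = 0.221). EPHB2 was at means of 70.11 ± 22.5 and 170.9 ± 21.8 (SD, n = 3), without overlap and not called (log2 fold change 1.28, DESeq2 adjusted p = 0.0957). Per kilobase, EPHB3 went from 180 to 560 mean normalized counts and EPHB4 from 574 to 733. EPHB1 had no read in any library. EFNB1 (0.46) and EFNB3 (-0.16, both log2 fold changes) were not called.

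**Figure D3:**
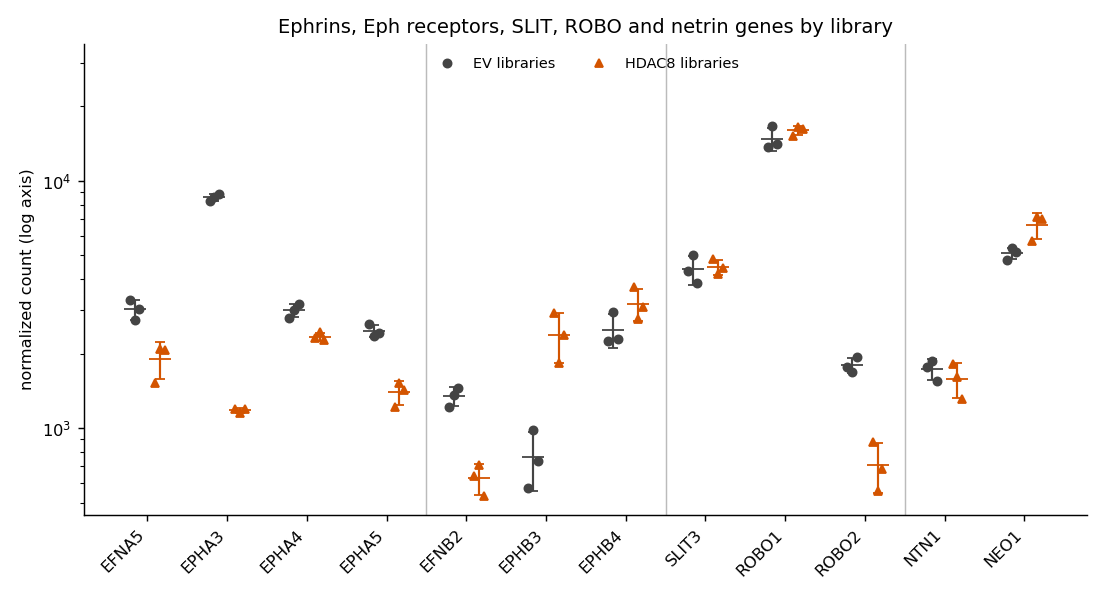
Normalized counts (log axis) of 12 named ephrins, Eph receptors, SLIT, ROBO and netrin genes in each library, with the mean and SD of 3 libraries per group. EPHA3, EFNB2 and ROBO2 lie lower in all 3 HDAC8 libraries and EPHB3 higher, while ROBO1 and SLIT3 overlap.

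Of the 4 ROBO receptors, 1 was called. ROBO2 (chr3:75906695-77649964), a receptor for SLIT ligands, was at 1770, 1690.4 and 1930.8 normalized counts in EV and at 877.31, 559.19 and 686.04 in HDAC8. All HDAC8 libraries lay below EV (log2 fold change -1.34 ± 0.22, DESeq2 adjusted p = 7.65e-08). ROBO1 was the more abundant receptor, at 2140 and 2310 mean normalized counts per kilobase against 199 and 78.5 for ROBO2. Its normalized counts were 13637, 16634 and 14130 in EV and 15205, 16551 and 16257 in HDAC8, with a 95% interval of -0.14 to 0.37 around a log2 fold change of 0.11 (DESeq2 adjusted p = 0.714).

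SLIT3, the SLIT ligand with the most counts, was at 4315, 5026.4 and 3852.8 normalized counts in EV and at 4819.2, 4181.6 and 4447.3 in HDAC8. The groups overlapped (log2 fold change 0.03, 95% interval -0.28 to 0.33, DESeq2 adjusted p = 0.963), and the sign depended on the setting. SLIT1 was low and not called, at 97.52, 151.3 and 153.68 in EV and at 90.639, 31.749 and 23.957 in HDAC8 (log2 fold change -1.45, DESeq2 adjusted p = 0.16). Its highest HDAC8 library, HDAC8 1, lay just under its lowest EV library. SLIT1 was called lower without HDAC8 1 (-2.27, DESeq2 adjusted p = 0.00786) and with a filter of at least 10 counts in every library (-1.45, 0.0481).

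Among netrins and their receptors, only DCC was called, and at low counts. DCC, which mediates attraction to netrin, was at 2.0972, 20.547 and 0 normalized counts in EV and at 123.99, 52.232 and 76.227 in HDAC8. The groups did not overlap, but the EV libraries ranged from no read to over 20 (log2 fold change 3.47 ± 1.15, DESeq2 adjusted p = 0.0252). The call was lost in 7 of 15 settings, which include edgeR (3.43, adjusted p = 0.113) and limma-voom (4.74, 0.111), with adjusted p from 0.000321 to 0.149. Without EV 1, EV 3, HDAC8 1 or HDAC8 3 in turn it was also lost, at DESeq2 adjusted p of 0.115, 0.0749, 0.149 and 0.103.

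NEO1 (neogenin), a related receptor of netrins, was at 4803.6, 5334.6 and 5132.5 normalized counts in EV and at 5686.3, 7142.4 and 7013.9 in HDAC8. The groups did not overlap, and NEO1 was not called (log2 fold change 0.38, DESeq2 adjusted p = 0.0695). NTN1, the netrin with the most counts, overlapped, at 1775.3, 1872.5 and 1547.6 in EV and at 1809.4, 1606.9 and 1308.9 in HDAC8 (log2 fold change -0.14, DESeq2 adjusted p = 0.789). Per kilobase, NEO1 was at 716 and 931 mean normalized counts against 0.741 and 8.27 for DCC. UNC5B and UNC5C were not called, and UNC5A had under 10 counts.

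Groups did not overlap for 31 of the 64 tested members (48.4%), beside 24% of all genes tested, and for 27 of the 49 with a mean of at least 50 (55.1%), beside 36.8% of such protein-coding genes. All 15 called members were among them. Of the 35 members with that mean that were not called, 17 had positive and 18 negative log2 fold changes, from -1.45 to 1.28, and 26 were under 0.58 in size. UNC5D and NTN4 had no adjusted p. SEMA5B had no read in any library, like EPHA6 and EPHB1.

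HDAC8 1 differed from HDAC8 2 and HDAC8 3 along the GC content of the members. For the 24 members above a transcript GC of 56% (the median of the 49), the median log2 of HDAC8 1 over the mean of the others was 0.40, and HDAC8 1 was the highest HDAC8 library in 21. For the 25 at or below it, the median was -0.11 and HDAC8 1 was highest in 8. Over all genes with a mean of at least 50 and a known GC content, split at the same GC, the medians were 0.37 and -0.17. Without HDAC8 1, the log2 fold changes were 0.60 for PLXNB2 (DESeq2 adjusted p = 0.000141), 0.77 for PLXND1 (2.9e-05) and 1.46 for EPHB3 (1.19e-07), all still called. Calls that changed without it were those of EFNA5, DCC, SEMA4F, SLIT1 and PLXNA4. With size factors set within GC bins, PLXNB2 was at 0.56 (DESeq2 adjusted p = 4.07e-10), just under the fold minimum. The part of GC content in these results was otherwise not tested.

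**Figure D4:**
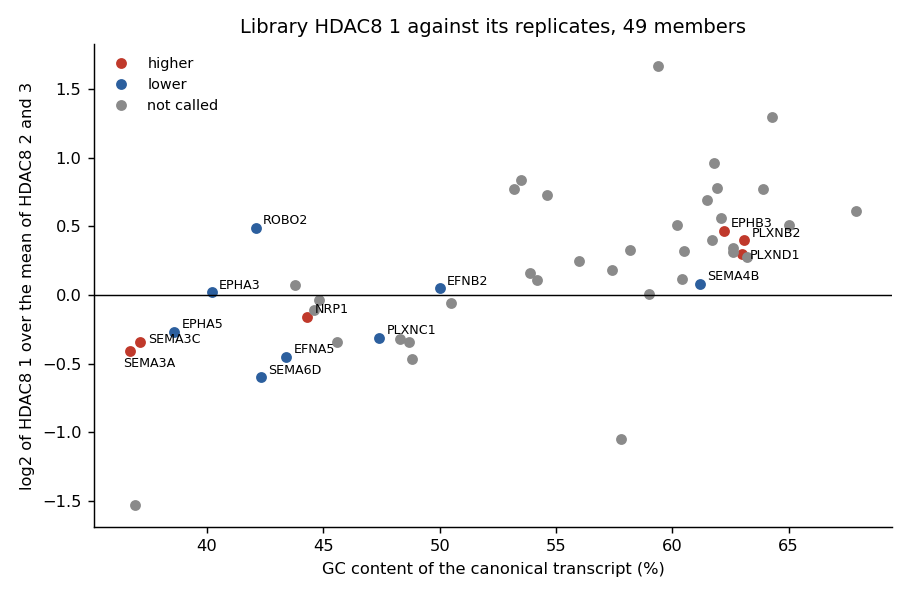
Log2 ratio of HDAC8 1 to the mean of HDAC8 2 and HDAC8 3 (y axis) against the GC content of the canonical transcript in percent (x axis), 1 point per member averaging 50 normalized counts or more. Most members above a GC content of 56% lie above 0, among them EPHB3, PLXNB2 and PLXND1, and SEMA3A and SEMA3C lie below 0.

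Marker genes of the line and of other cell types were read in the same fit. Of 10 melanocytic markers 5 were called lower by DESeq2, namely MLANA, SLC45A2, TYR, DCT and PMEL, while edgeR and limma each called 6 lower. The sums were 254100 to 339900 normalized counts in EV and 140700 to 186100 in HDAC8, mostly from PMEL. Among markers called by DESeq2, log2 fold changes ran from -4.84 for MLANA to -0.86 for PMEL. Those not called by DESeq2 were MITF (-0.20, DESeq2 adjusted p = 0.544), SOX10 (-0.33, 0.211), GPR143 (-0.19, 0.623), TYRP1 (-2.76, 0.303) and OCA2 (-4.94, 0.0787). Among these, SOX10, TYRP1 and OCA2 were lower without overlap. In bulk RNA, fewer cells of a kind and less RNA per cell cannot be told apart. None of 8 endothelial, 5 keratinocyte and 5 glial markers was called by DESeq2, edgeR or limma, and DSG3 was the 1 among them with an unadjusted DESeq2 p under 0.05. Only 5, 4 and 4 of them had a DESeq2 adjusted p, so low counts limited what could be called. Of the endothelial markers, CLDN5 (log2 fold change 0.83) and ESAM (1.51) were higher without overlap. VWF (0.38), TEK (2.53) and KDR (1.71) were positive with overlap, while PECAM1 (-1.65) and EMCN (-0.34) were negative. The median log2 fold change of the 7 tested was 0.83. The endothelial sums were 166.7 to 287.7 and 260.3 to 483.1, with CDH5 at 0 throughout. Keratinocyte sums were 162.5 to 303.4 in EV and 165.5 to 176.2 in HDAC8, with KRT1 at 0. Of 7 fibroblast markers PDGFRA was called higher by DESeq2 (log2 fold change 1.16, adjusted p = 0.0377) and none by edgeR or limma. Values were negative for the other 5 fibroblast markers tested, among them LUM (-0.60, DESeq2 adjusted p = 0.0778) and PDGFRB (-2.79, 0.0966). The fibroblast sums were 2536 to 2982 and 1478 to 2423, mostly from LUM, with DCN at 0. Of 6 leukocyte markers CD68 and CD3E were higher, and PTPRC was at 0 in all libraries except HDAC8 1 (2.5652). The leukocyte sums were 2357 to 3387 and 4332 to 6290, mostly from CD68. Of 6 neuronal markers 1 was called lower (SLC17A7, log2 fold change -1.89). SYT1 (-3.74), RBFOX3 (-1.02) and MAP2 (-0.16) were negative and not called, while GAD1 (0.18) and SNAP25 (0.28) were positive. The neuronal sums were 1693 to 1900 and 1381 to 1855, and the glial sums were 7182 to 8857 and 7944 to 9147. The part of these shifts in the members' changes was not tested.

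Other genes of axon guidance were counted from lists written with earlier results of these data known. Of 55 other cues and co-receptors in the table, 46 had an adjusted p, 5 were called higher (10.9%, beside 5.57% of all genes) and 12 lower (26.1%, beside 5.44%). The shares over protein-coding genes with a mean of at least 50 were 8.08% higher and 7.06% lower. The 51 tested had a median log2 fold change of -0.23. The most lowered were SPON2, a secreted matrix protein (mean normalized counts 1031 to 21.33, log2 fold change -5.62, DESeq2 adjusted p = 1.67e-39), CNTN4, an adhesion molecule of axons (245.1 to 19.47, -3.66, 7.45e-05), and ROR2, a WNT5A receptor (598.8 to 54.53, -3.45, 3.93e-14). The most raised were TENM4, a teneurin (49.41 to 194.3, 1.97, 0.00341), the proteoglycan SDC4 (2500 to 4825, 0.95, 1.93e-07) and MET, the receptor of hepatocyte growth factor (2964 to 5221, 0.82, 1.84e-05).

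Of 75 intracellular effectors, 73 had an adjusted p, 12 were called higher (16.4%, beside 5.57% of all genes) and 6 lower (8.22%, beside 5.44%). Beside the 8.08% and 7.06% of protein-coding genes with a mean of at least 50, the share called lower was near that background. The median log2 fold change was 0.19. DPYSL2 (CRMP2), a mediator of the semaphorin response, went from 396.7 to 2388 mean normalized counts (log2 fold change 2.59, DESeq2 adjusted p = 2.69e-24). ABLIM1, an actin-binding protein, went from 201.8 to 1075 (2.41, 2.2e-17) and EVL, an actin regulator of the Ena/VASP family, from 128.6 to 552.9 (2.10, 2.36e-05). The kinase SRC fell from 262.9 to 16.84 (-3.98, 6.37e-07). FARP2, which acts downstream of plexins, fell from 17600 to 9770 (-0.85, 1.38e-10), and the adaptor NCK2 from 2037 to 1189 (-0.78, 0.00228). The adjusted p-values are all from DESeq2, with 3 libraries per group.

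**Figure D5:**
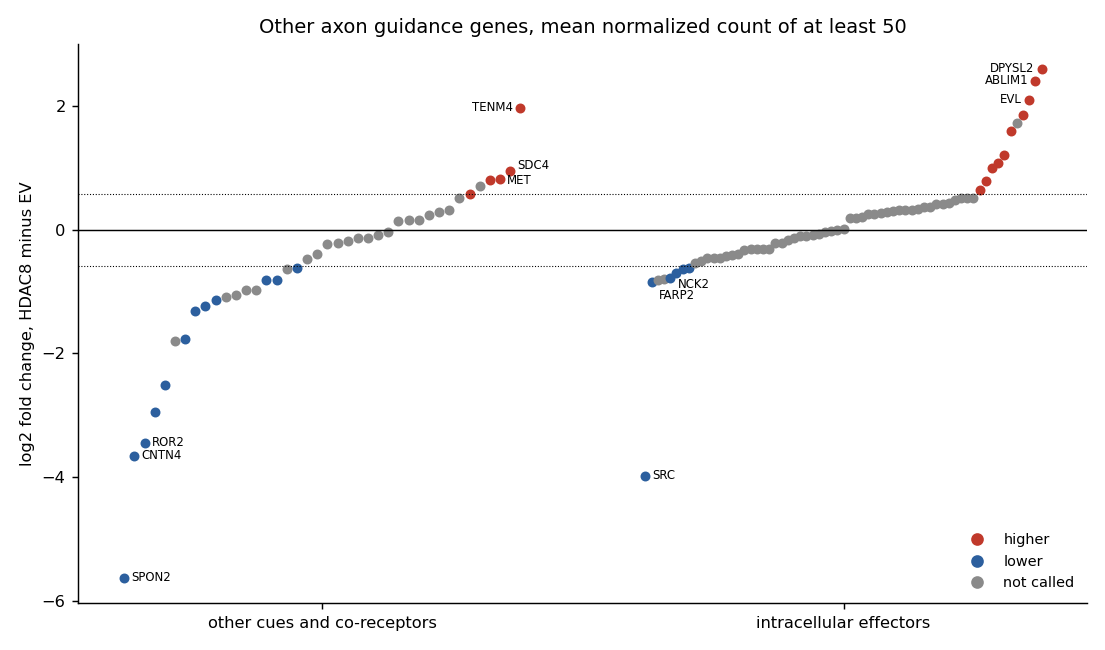
Log2 fold change (y axis, HDAC8 minus EV) of the other axon guidance genes averaging 50 normalized counts or more, in rising order within the list of cues and co-receptors and the list of intracellular effectors, with dotted lines at 0.58 in size. The named points are the 3 most raised and 3 most lowered called genes of each list, with SPON2 lowest and DPYSL2 highest.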

How the data were processed

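RNA-seq was analysed for 3 EV and 3 HDAC8 libraries of WM164. The deposited values are expected counts per gene, for which the authors used Trimmomatic, STAR and RSEM, per the labels. The genome build and annotation are not given in the sources used here, nor is strand-specific counting, so overlapping and antisense genes are uncertain, and 13 members had expected counts that were not whole.

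Expected counts were rounded and tested in R 4.3.3 with DESeq2 1.42.0 (two-sided Wald test, group as the only term, genes with at least 10 counts in all). Calls needed a Benjamini-Hochberg adjusted p under 0.05 over all genes and a log2 fold change that reached 0.58 in either direction. Rows without a symbol took 0.0804% to 0.102% of counts and were kept under their identifier. Positions, canonical transcripts and GC content came from GENCODE 44 (GRCh38), promoters from RefSeq (GRCh38.p14). UNC50 matched a prefix and was left out as a different gene. No promoter window was available here for EFNB3, EPHA10, NRP1, NTN1, NTNG2, SEMA3A, SEMA6A, SEMA6B, UNC5B and UNC5D. The called members SEMA3A and NRP1 were therefore not searched for motifs.

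The members and lists were chosen with earlier results of these data known. Values per library were given for called members, for the member with the most counts in each family and for the most abundant known partner of each called member, with a few others singled out after their values were seen. Of the other lists, the 3 largest rises and falls among called genes with a mean of at least 50 were named. Alternatives were edgeR 4.0.16, limma 3.58.1 (voom), other size factors and filters, a test against the fold minimum, a replicate block and each library left out. Size factors within 20 GC bins and the removal of mitochondrial genes were added after seeing the data. The fits were tested on simulated data. The depth of 34741083 to 42041462 counts puts 3 counts at 2.57 to 3.27 normalized counts, which covers counting error only.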

Additional observations from a re-analysis of the deposited data

How the results depend on the processing

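Of the 15 called members, 11 kept their call in all 15 settings that used the same call rule, and EFNA5, DCC, PLXNB2 and SEMA4B lost it in some. Testing against the fold minimum itself left 292 genes higher and 291 lower over all genes. Under that test 4 members stayed higher (SEMA3A, SEMA3C, NRP1, EPHB3) and 4 lower (EPHA3, SEMA6D, ROBO2, PLXNC1), and the other axon guidance genes gave 5 higher and 8 lower, against 17 and 18. That test asks for a change beyond the minimum and so calls fewer genes. Leaving out each library in turn gave 746 to 1378 genes lower over all genes, against 1143, with the lowest without EV 3. SLIT3 had a log2 fold change of -0.03 with GC-bin size factors and -0.07 to 0.13 with each library left out, against 0.03, and the cause was not tested.

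Same-numbered libraries did not deviate together (correlations -0.027, -0.066 and 0.04 over 14451 genes), so no pairing by number was seen. With 3 libraries per group, these values cannot show that same-numbered libraries were prepared apart. A replicate block gave 7 members higher and 9 lower. With it SEMA4B was at -0.58 (DESeq2 adjusted p = 0.133), and EPHB6 and SEMA3G were called lower. A filter of at least 10 counts in every library removed DCC and gave 8 members higher (EPHB2 and PLXNB1 gained) and 10 lower (SEMA4F and SLIT1 gained). For the 22 members with a mean under 50, depth limits what can be detected.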

Other observations

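Other genes of the collapsin response mediator family were read beside DPYSL2 and were chosen after their values were seen. DPYSL3 was at 930.11, 732.2 and 1096.4 normalized counts in EV and at 1726.4, 1980.7 and 1798.9 in HDAC8, without overlap (log2 fold change 1.00, DESeq2 adjusted p = 6.55e-05). DPYSL4 had no read in EV and 122.28, 68.618 and 87.116 in HDAC8 (DESeq2 adjusted p = 7.64e-08). Its HDAC8 mean of 92.67 was 31.2-fold above a floor of 3 counts per EV library. DPYSL5 had no read in EV and 11.971, 24.58 and 14.156 in HDAC8, with a mean 5.69-fold above the same floor. Its DESeq2 adjusted p of 0.0468 was close to the threshold. CRMP1 was not called, at 273.69, 302.59 and 334.94 in EV and at 270.21, 251.94 and 380.04 in HDAC8, and its groups overlapped.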
